A study of Mus musculus with 12 samples.

Results

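The genes of hepatic glucose output followed here were G6pc, Slc37a4 and Slc2a2 (glucose release), Pck1, Fbp1 and Pcx (gluconeogenesis), and Gys2, Pygl, Ppp1r3b and Ppp1r3c (glycogen turnover). They were taken by gene name from the count tables and were 10 of 54532 genes. All 10 passed the filter on low counts in every comparison. Liver RNA had been sequenced from male mice carrying floxed PPARγ alleles that were injected at 8 weeks of age with adeno-associated virus serotype 8. In the PPARγ-KO groups the virus expressed Cre recombinase, and in the wild-type groups enhanced green fluorescent protein, both from the TBG promoter, which is active in hepatocytes. The wild-type animals therefore also carried the floxed alleles and a virus. All groups were fed a fast-food diet (FFD) rich in fat, cholesterol and sucrose for 2 or 5 months, with 3 libraries per genotype and time and 12 in all, and a chow-fed group was not analysed here. Other liver cell types keep PPARγ in this model. The labels number the libraries of a group without saying that they came from separate mice, so p-values measure the spread between these libraries.

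Liver makes glucose from lactate, alanine and glycerol by gluconeogenesis, and also stores it as glycogen and releases it again. Both routes end at glucose-6-phosphate, which a phosphatase of the endoplasmic reticulum hydrolyses to free glucose that leaves the cell. Glucagon, glucocorticoids and fasting are known to raise the gluconeogenic genes, whereas insulin lowers them and favours glycogen storage.

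The libraries held 16367775 to 27452284 counts, so each member rested on 435 to 78954 counts per library. Pairs of libraries of 1 group differed by a chi-square of 2.44 to 31.7 per gene, where counting noise alone gives about 1, and the first wild-type library of 2 months was the most distant from its group. Leaving it out raised the calls at 2 months from 519 to 1577 genes but left the same members called, Slc37a4 and Pcx. Hepatocyte markers summed to 62040 to 93320 CPM (counts scaled to a common library size) over all libraries and pancreas markers to 0 to 0.258. Gene-level counts of the targeted gene Pparg were higher under the KO label. Wild-type libraries had 38.6, 41.1 and 37.3 normalized CPM at 2 months, whereas those labelled PPARγ-KO, called KO-labelled below, had 50.3, 66.3 and 52.1. At 5 months the values were 37.2, 41.4 and 37.1 against 86.5, 93.4 and 75.6. Cfd, known as a target of PPARγ in fat cells and named after its values were seen, ran the other way, with 32.5, 3.58 and 4.93 CPM in wild-type libraries at 2 months, 7.17, 6.71 and 6.17 at 5 months and 0 counts in every KO-labelled library. The excised exons cannot be followed in gene-level counts, so the counts of Pparg do not test the deletion. Every direction below rests on the labels as given.

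After 5 months of diet, the members that were called were split in direction. In KO-labelled libraries G6pc was lower, at 0.634 of wild-type, whereas its partner Slc37a4 was higher (1.73-fold) and the glycogen-targeting subunits Ppp1r3b (2.04-fold) and Ppp1r3c (1.83-fold) were higher as well. Pygl rose by less (1.22-fold) and Pcx fell to 0.842 of wild-type. Pck1, Fbp1, Slc2a2 and Gys2 did not pass the test. Thus 6 of 10 members had an edgeR adjusted p below 0.05 at 5 months, where 18.4% of all genes tested did, and at 2 months 2 of 10 (Slc37a4 and Pcx), where 3.56% of all genes did. The libraries of both genotypes did not overlap for 4 members at 2 months (24.3% of all genes) and for 6 at 5 months (34.8%).

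**Figure D1:**
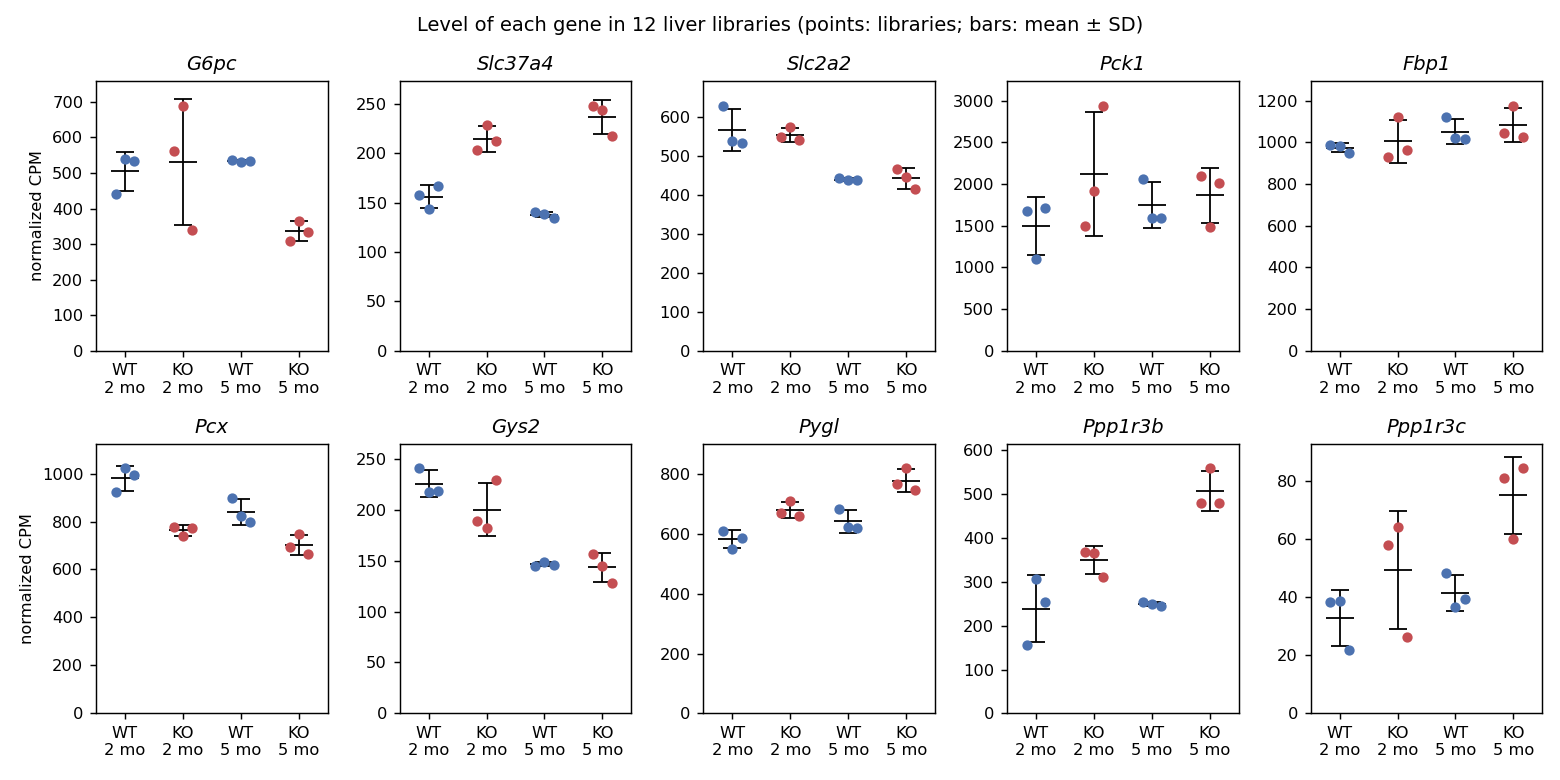
Normalized CPM (y axis, from 0) of the 10 members in wild-type (blue) and PPARγ-KO-labelled (red) libraries after 2 and 5 months of FFD. Points are libraries and bars are mean ± SD (n = 3); the 5-month PPARγ-KO points of G6pc lie at 309 to 365, under the wild-type points at 530.3 to 536.

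G6pc (ENSMUSG00000078650, chromosome 11 of mm10 from 101367561 to 101377903, plus strand) encodes the catalytic subunit of glucose-6-phosphatase. At 2 months it had 441, 539 and 535 CPM in wild-type libraries and 562, 690.0 and 339 in KO-labelled libraries. The KO-labelled libraries lay both above and below all wild-type libraries, and the log2 fold change was 0.06 (SE 0.263, edgeR adjusted p = 0.934). At 5 months the wild-type libraries had 536, 530.3 and 535 CPM and the KO-labelled libraries 309, 365 and 334. No library overlapped, and the log2 fold change was -0.66 (SE 0.073, edgeR adjusted p = 6.06e-05). In a fit of all 12 libraries, where the wider spread at 2 months enters, the 5-month adjusted p was 0.0619.

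Slc37a4 (ENSMUSG00000032114, chromosome 9 from 44396852 to 44402968, plus strand) encodes the transporter that carries glucose-6-phosphate into the endoplasmic reticulum to that phosphatase. Its wild-type libraries had 158, 143 and 167 CPM at 2 months, and the KO-labelled libraries 203, 229 and 212. All KO-labelled libraries were higher, with a fitted log2 difference of 0.45 (SE 0.0822, edgeR adjusted p = 0.0196). Without wild-type replicate 2, or without any of the KO-labelled replicates, the adjusted p rose above the threshold, up to 0.081. At 5 months wild-type libraries had 140.2, 139 and 135 CPM and KO-labelled libraries 249, 244 and 217, again without overlap (log2 fold change 0.79, SE 0.0683, edgeR adjusted p = 8.26e-06). This call was kept in all 12 alternative fits.

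Slc2a2 (ENSMUSG00000027690, chromosome 3 from 28697903 to 28731359, plus strand) encodes GLUT2, the main glucose transporter of the hepatocyte membrane. It had 630.0, 539 and 534 CPM in wild-type and 549, 575 and 541 in KO-labelled libraries at 2 months. At 5 months the values were 443, 438 and 438 against 466, 447 and 415. The genotypes overlapped at both times, with log2 fold changes of -0.04 (SE 0.0894, edgeR adjusted p = 0.847) and 0.02 (SE 0.068, edgeR adjusted p = 0.874).

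The ratio of G6pc to Slc37a4, both as CPM per kb of the deposited gene length, does not depend on the scaling of libraries and was taken after the values had been seen. It was 3.30, 4.45 and 3.80 in wild-type and 3.27, 3.57 and 1.89 in KO-labelled libraries at 2 months. At 5 months it was 4.52, 4.52 and 4.70 against 1.47, 1.77 and 1.82. The 5-month difference was -1.45 on the log2 scale (wild-type 2.20 ± 0.0316, KO-labelled 0.75 ± 0.167, SD, n = 3 each). Its exact two-sided permutation p was 0.1, the smallest that 20 arrangements allow. All KO-labelled libraries of that time were already lower for G6pc and higher for Slc37a4, so full separation was fixed in advance. That p therefore adds no support beyond the tests of the single genes. The 2-month difference was -0.45 (exact permutation p = 0.2).

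The promoters of G6pc and Slc37a4 are shown because these partners moved in opposite directions, and that of Pck1 for comparison as a gluconeogenic gene without a call. The windows are from RefSeq (GRCm38.p6) and run from 250 bases before to 50 bases after a start. G6pc lies at chr11:101367466-101367765, the first of 3 Slc37a4 windows at chr9:44396696-44396995 and Pck1 at chr2:173152823-173153122, each on the plus strand. Capitals mark matches to the motifs searched, on either strand.
G6pc: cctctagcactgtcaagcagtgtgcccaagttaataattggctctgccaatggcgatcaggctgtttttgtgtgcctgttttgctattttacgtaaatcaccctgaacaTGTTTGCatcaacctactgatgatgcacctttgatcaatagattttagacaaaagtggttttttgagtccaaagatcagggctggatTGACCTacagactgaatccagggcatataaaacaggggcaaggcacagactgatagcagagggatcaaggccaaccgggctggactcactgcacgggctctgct
Slc37a4: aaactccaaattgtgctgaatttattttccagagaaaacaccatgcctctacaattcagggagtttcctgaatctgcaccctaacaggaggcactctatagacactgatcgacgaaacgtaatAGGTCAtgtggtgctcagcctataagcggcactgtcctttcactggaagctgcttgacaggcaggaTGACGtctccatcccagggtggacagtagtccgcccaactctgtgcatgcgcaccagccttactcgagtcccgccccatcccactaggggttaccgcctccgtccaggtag
Pck1: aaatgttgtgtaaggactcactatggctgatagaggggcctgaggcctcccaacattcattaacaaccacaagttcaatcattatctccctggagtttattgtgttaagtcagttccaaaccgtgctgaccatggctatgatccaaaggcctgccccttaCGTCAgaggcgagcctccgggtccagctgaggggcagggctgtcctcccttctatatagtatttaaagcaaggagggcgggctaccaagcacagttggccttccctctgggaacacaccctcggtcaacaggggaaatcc

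Windows were found for 8 members, 11 in all, and Gys2 and Ppp1r3b had none. The motifs searched on both strands were the cAMP response element TGACGTCA and its core TGACG, and the nuclear receptor repeat AGGTCANAGGTCA and its single site AGGTCA. The others were the forkhead motifs TGTTTAC and TGTTTGC, the E-box CACGTG and AGAACA, which is only a part of the glucocorticoid receptor site. Each of the shorter forms also lies within its longer form. In the G6pc window, TGTTTGC began at position -141 and AGGTCA on the minus strand at -54, counted from -1 for the last base before the start. TGTTTGC is held by 5.07% and AGGTCA by 16.3% of 32851 promoter windows. The Slc37a4 window shown held AGGTCA at -127 and TGACG at -61, and the Pck1 window TGACG on the minus strand at -90, a motif in 20.8% of all windows. Of the 11 windows, 4 held TGACG (the first and second Slc37a4 windows overlap and share a match), 5 held AGGTCA, 2 held CACGTG (Ppp1r3c and the first Pcx window; 7.15% of all windows) and 1 held TGTTTGC. The exact sequence TGACGTCA (1.79% of all windows), the exact AGGTCA repeat (0.0396%), TGTTTAC (3.65%) and AGAACA (19%) had no match in these windows. Sites that depart from these letters were not searched, so their absence is not shown. In the Pck1 window the TGACG match lies within TTACGTCA, which differs from TGACGTCA in its second base.

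Pck1 (ENSMUSG00000027513, chromosome 2 from 173153048 to 173159273, plus strand) encodes the cytosolic phosphoenolpyruvate carboxykinase, a committed step of gluconeogenesis. Its own libraries lay further apart at 2 than at 5 months, with 1683, 1101 and 1709 CPM in wild-type and 1495, 1921 and 2943 in KO-labelled libraries. Its 5-month values were 2066, 1595 and 1589 against 2094, 1487 and 2018. The genotypes overlapped at both times, and neither the fitted log2 difference of 0.49 (SE 0.294, edgeR adjusted p = 0.446) at 2 months nor that of 0.10 (SE 0.145, edgeR adjusted p = 0.688) at 5 months passed the test. The KO-labelled library with the highest Pck1 at 2 months, replicate 3, had the lowest G6pc of its group.

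Fbp1 (ENSMUSG00000069805, chromosome 13 from 62864753 to 62888282, minus strand) encodes the fructose bisphosphatase that opposes phosphofructokinase. It had 989, 983 and 949.5 CPM in wild-type and 929, 1124 and 962 in KO-labelled libraries at 2 months. The 5-month libraries had 1121, 1020.0 and 1016 CPM when wild-type and 1046, 1177 and 1027 when KO-labelled. Its values lay close together in every group, with log2 fold changes of 0.04 (SE 0.0946, edgeR adjusted p = 0.883) and 0.05 (SE 0.0785, edgeR adjusted p = 0.707).

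Pcx (ENSMUSG00000024892, chromosome 19 from 4510472 to 4621752, plus strand) encodes pyruvate carboxylase, the mitochondrial enzyme that feeds pyruvate into gluconeogenesis and the citrate cycle. At 2 months it had 923, 1022 and 995 CPM in wild-type and 779, 738 and 772 in KO-labelled libraries, without overlap (log2 fold change -0.37, SE 0.0824, edgeR adjusted p = 0.039). The call was lost without any one library other than wild-type replicate 1, with an adjusted p of up to 0.151. With the replicate number as a block the 2-month call was lost, at an edgeR adjusted p of 0.073. At 5 months it had 900.0, 824 and 797 against 692, 749 and 666, again all lower in KO-labelled libraries, with a smaller fitted log2 difference of -0.25 (SE 0.0752, edgeR adjusted p = 0.0367). The 5-month call did not hold without wild-type replicate 2 or 3 or KO-labelled replicate 1 or 3, with an adjusted p of up to 0.157 over all fits, nor with the replicate number as a block (0.0583). The span of Pcx holds Lrfn4 on the other strand, which had 875 counts over the 12 libraries against 189677 for Pcx.

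**Figure D2:**
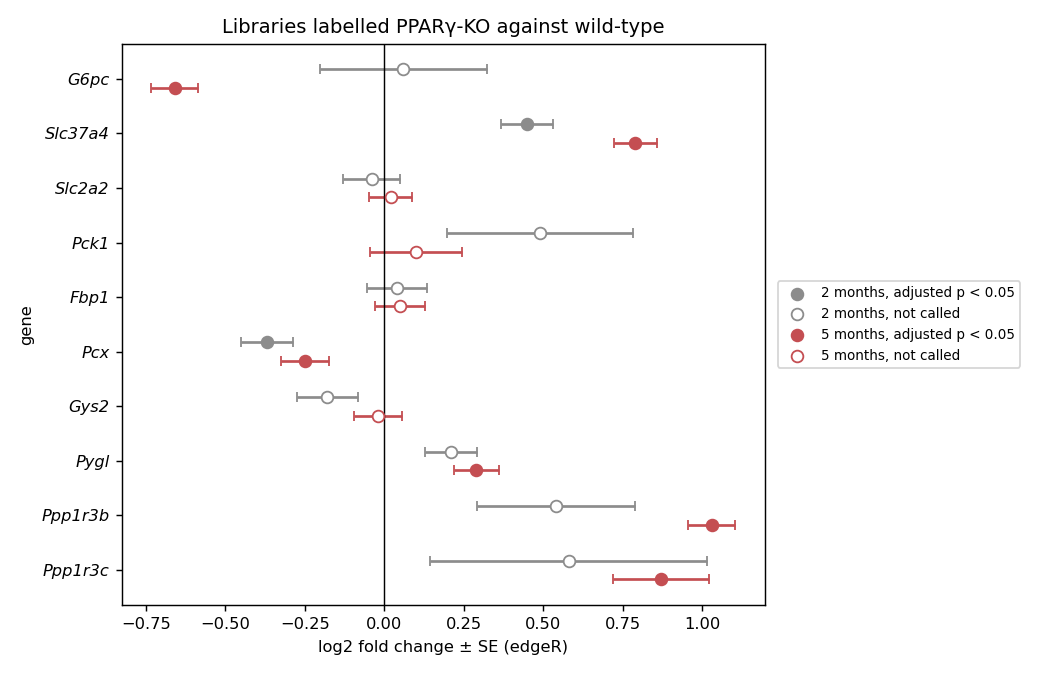
Log2 fold change ± SE (x axis) of each member (y axis), KO-labelled against wild-type libraries, after 2 months (grey) and 5 months (red) of FFD; filled points had an edgeR adjusted p below 0.05. G6pc lay at 0.06 at 2 months and -0.66 at 5 months, and Ppp1r3b at 0.54 and 1.03. For neither gene was a change of the difference between the times called.

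Gys2 (ENSMUSG00000030244, chromosome 6 from 142422613 to 142473109, minus strand) encodes liver glycogen synthase. It had 241, 217 and 219 CPM in wild-type and 189, 182 and 230.0 in KO-labelled libraries at 2 months. The 5-month libraries had 145, 149 and 146 CPM when wild-type and 157, 145 and 129 when KO-labelled. The genotypes overlapped at both times, with log2 fold changes of -0.18 (SE 0.0961, edgeR adjusted p = 0.351) and -0.02 (SE 0.0749, edgeR adjusted p = 0.9).

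Pygl (ENSMUSG00000021069, chromosome 12 from 70190811 to 70231488, minus strand) encodes liver glycogen phosphorylase, which breaks glycogen down. At 2 months it had 608, 550.0 and 587 CPM in wild-type and 669, 709 and 658 in KO-labelled libraries. All KO-labelled libraries were higher, yet the fitted log2 difference of 0.21 (SE 0.0815, edgeR adjusted p = 0.194) did not pass the test. After 5 months the values were 684, 622 and 618 against 767, 819 and 747, without overlap (log2 fold change 0.29, SE 0.072, edgeR adjusted p = 0.0137). It did not hold without wild-type replicate 2 or 3 or KO-labelled replicate 2, with an adjusted p of up to 0.0791.

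Ppp1r3b (ENSMUSG00000046794, chromosome 8 from 35375739 to 35388139, plus strand) encodes a subunit that brings protein phosphatase 1 to glycogen, where the phosphatase activates glycogen synthase. At 2 months wild-type libraries had 155, 307 and 254 CPM and KO-labelled libraries 369, 366 and 312. The KO-labelled libraries were all higher, but wild-type replicate 1 stood low, and the fitted log2 difference of 0.54 (SE 0.249, edgeR adjusted p = 0.326) did not pass the test. At 5 months wild-type libraries had 255, 249 and 244 CPM and KO-labelled libraries 479, 559 and 480.1. This was the widest difference among the members, with a fitted log2 difference of 1.03 (SE 0.0748, edgeR adjusted p = 2.38e-06), and the call was kept in all 12 alternative fits.

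Ppp1r3c (ENSMUSG00000067279, chromosome 19 from 36731737 to 36736653, minus strand) encodes a related targeting subunit and was the member with the fewest counts. At 2 months it had 38.3, 38.7 and 21.9 CPM in wild-type and 58.2, 64.2 and 26.4 in KO-labelled libraries. In both genotypes replicate 3 was the lowest, and the genotypes overlapped (log2 fold change 0.58, SE 0.436, edgeR adjusted p = 0.563). With the replicate number as a block the 2-month fold change was 0.53 at an edgeR adjusted p of 0.0159. At 5 months it had 48.4, 36.7 and 39.3 against 80.9, 59.9 and 84.5, without overlap (log2 fold change 0.87, SE 0.151, edgeR adjusted p = 0.007). In the fit of all 12 libraries the 5-month adjusted p was 0.158.

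The ratio of Pygl to Gys2 per kb, also taken after the values had been seen, was 0.973, 0.975 and 1.04 in wild-type and 1.36, 1.50 and 1.11 in KO-labelled libraries at 2 months. At 5 months it was 1.82, 1.61 and 1.63 against 1.88, 2.18 and 2.24. It was higher in every KO-labelled library at both times, by 0.40 and 0.31 on the log2 scale (exact two-sided permutation p = 0.1 each, the smallest that this design allows).

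**Figure D3:**
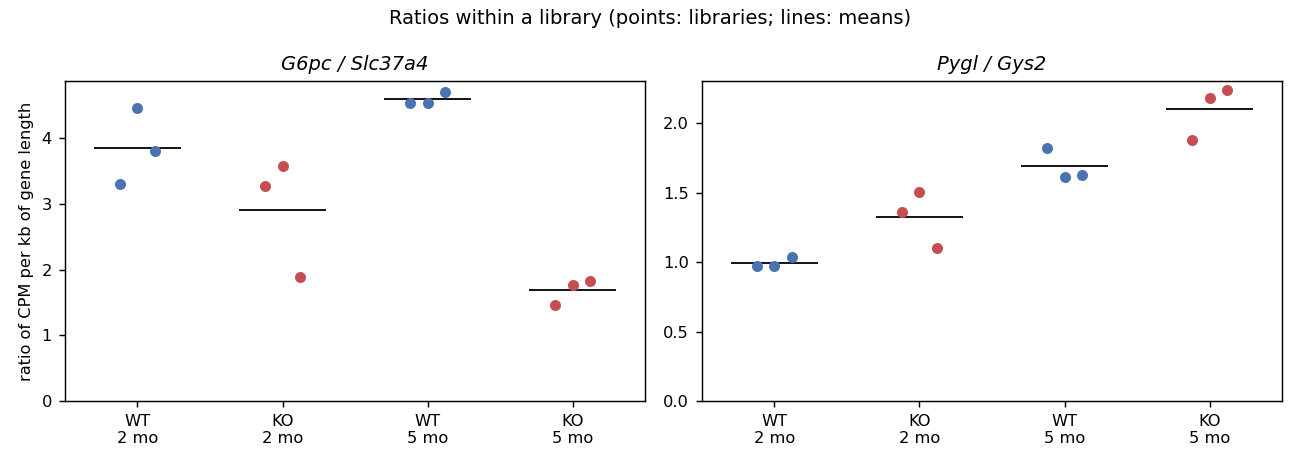
Ratio of CPM per kb of gene length (y axis, from 0) within each library for G6pc to Slc37a4 and Pygl to Gys2. Points are libraries, blue for wild-type and red for those labelled PPARγ-KO, and lines are means of 3; the ratio of G6pc to Slc37a4 lies at 1.47 to 1.82 in KO-labelled libraries at 5 months and at 4.52 to 4.70 in wild-type.

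Whether the genotype difference itself changed between the times was tested in a fit of all 12 libraries. By edgeR no member passed (0 of 10, against 1.57% of all genes), 2 members (G6pc and Slc37a4) had an unadjusted p below 0.05, and DESeq2 also called 0. For G6pc the difference of log2 fold changes was -0.73 (SE 0.292, edgeR adjusted p = 0.277) and for Slc37a4 0.33 (SE 0.107, edgeR adjusted p = 0.145). Single libraries at 2 months decided both further calls that were seen. Without KO-labelled replicate 3, G6pc passed at an adjusted p of 0.00493, and without wild-type replicate 1, Ppp1r3b passed at 0.00482. A change of the G6pc difference between the times is therefore not shown.

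Over time, Gys2 and Slc2a2 fell in both genotypes. From 2 to 5 months of FFD, Gys2 fell by 0.64 on the log2 scale in wild-type (SE 0.0764, edgeR adjusted p = 8.18e-05) and by 0.49 in KO-labelled libraries (SE 0.102, edgeR adjusted p = 0.00427). Slc2a2 fell by 0.39 (SE 0.0915, edgeR adjusted p = 0.00565) and by 0.34 (SE 0.0643, edgeR adjusted p = 0.00151). All 5-month libraries of both genes were lower than all 2-month libraries of the same genotype, and these calls were kept in all 12 alternative fits. Pcx fell in wild-type (log2 fold change -0.24, SE 0.09, edgeR adjusted p = 0.0491), a call at the threshold that was lost with DESeq2 size factors and without wild-type replicate 2 or 3 of either time, and the change in KO-labelled libraries was -0.13 (SE 0.064, edgeR adjusted p = 0.123, and 0.0265 with library size alone). In KO-labelled libraries Ppp1r3b rose by 0.53 (SE 0.0847, edgeR adjusted p = 0.000522, but 0.0529 in the fit of all 12 libraries) and Pygl by 0.19 (SE 0.0633, edgeR adjusted p = 0.0327, lost with library size alone and without KO-labelled replicate 1 or 3 of 2 months or 1 or 2 of 5 months), whereas in wild-type these genes changed by 0.05 (SE 0.232, edgeR adjusted p = 0.886) and 0.12 (SE 0.0869, edgeR adjusted p = 0.27).

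In all, 3 members were called over time in wild-type, where 46.4% of all genes were, and 4 in KO-labelled libraries, where 44.9% were. The times did not overlap for 6 members in wild-type (56.8% of all genes) and for 4 in KO-labelled libraries (55.6%). The study called genes at an unadjusted p below 0.05, and asked for a 1.3-fold change as well before it tested pathways. By that p alone, 3 members passed between genotypes at 2 months (2749 of 14573 genes tested) and 6 at 5 months (4344 of 14138). Over time 4 passed in each genotype, and 2 passed in the difference between the times. With the 1.3-fold change added, 1 member passed between genotypes at 2 months (11% of all genes) and 4 at 5 months (17%). With both limits 2 passed over time in each genotype (41.1% and 36%), and 1, G6pc, passed in the difference between the times (10.3%). G6pc changed over time by 0.06 in wild-type (SE 0.0955, edgeR adjusted p = 0.611) and by -0.67 in KO-labelled libraries (SE 0.288, edgeR adjusted p = 0.129), where it passed without replicate 3 of the 2-month group (edgeR adjusted p = 0.000133) and in the fit of all 12 libraries (0.0263). Slc37a4 changed by -0.20 (called with library size alone, in the fit of all 12 libraries and without wild-type replicate 2 of 2 months) and 0.13, Fbp1 by 0.09 and 0.10, Pck1 by 0.21 and -0.19, and Ppp1r3c by 0.31 and 0.60, in wild-type and KO-labelled libraries, respectively, with no call.

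**Figure D4:**
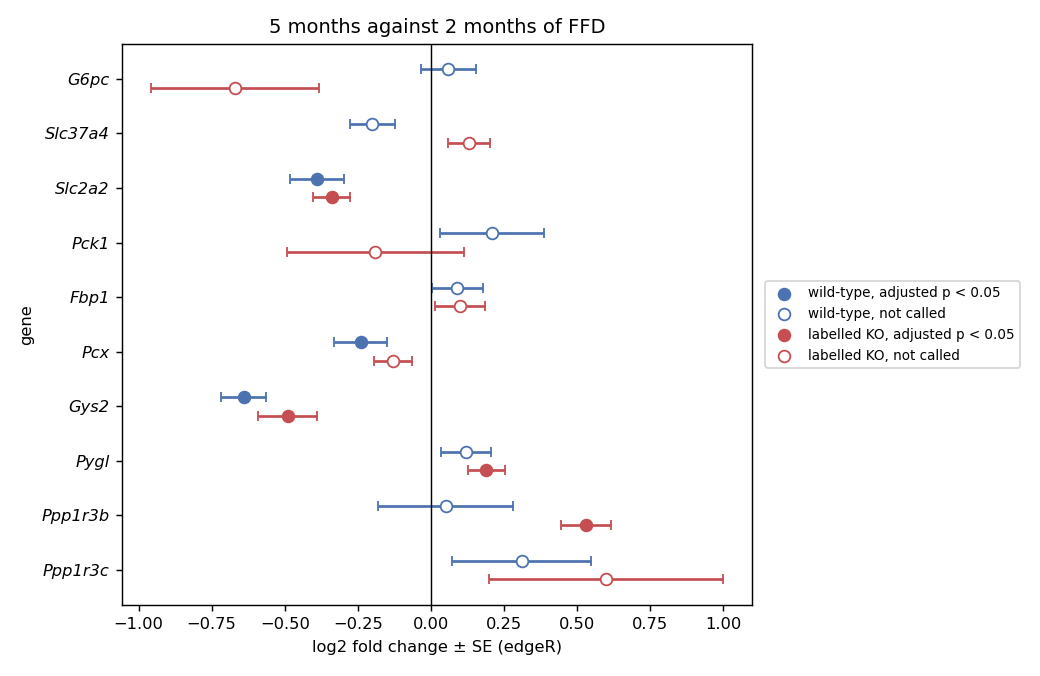
Log2 fold change ± SE (x axis) of each member (y axis) from 2 to 5 months of FFD in wild-type (blue) and in libraries labelled PPARγ-KO (red); filled points had an edgeR adjusted p below 0.05. Gys2 and Slc2a2 lie left of 0 in both genotypes, at -0.64 and -0.39 in wild-type.

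The times differed in more than the weeks of diet. The tables of the 2-month libraries carry gene names converted to dates of the year 2022 and those of the 5-month libraries of 2023, and whether libraries were made together is not given in the sources used here, so time and batch cannot be told apart. Circadian clock genes moved with time too: 17 of 18 were called in wild-type (4 higher, 13 lower) and 16 of 18 in KO-labelled libraries, and their summed level went from 1207 to 1314 CPM to 589.9 to 609.5 in wild-type and from 1321 to 1349 to 756 to 801 in KO-labelled libraries. Macrophage markers (9 of 10 called higher in wild-type) went from 412 to 546 CPM to 1167 to 1300.0 there, and in KO-labelled libraries (4 of 10 called higher, 2 lower) from 455 to 516 CPM to 544 to 720.0. Endothelial markers were called lower in 5 of 8 in wild-type and 6 of 8 in KO-labelled libraries, with 1 higher in each. Over all genes 46.4% and 44.9% were called with time. The part of these groups in the change of the members was not tested.

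By level per kb of gene length, Fbp1 and Pck1 were the most abundant members and Ppp1r3c the least in every group. The order rests on the deposited gene lengths, such as 6895 bases for Pygl and 2657 for Gys2. The lengths of the transcripts expressed were not determined. In wild-type at 5 months the order was Fbp1 (618 ± 35 CPM per kb), Pck1 (510.3 ± 79.8), G6pc (221 ± 1.18), Pcx (181 ± 11.5), Pygl (93.0 ± 5.39), Slc2a2 (76.4 ± 0.493), Gys2 (55.1 ± 0.738), Slc37a4 (48.3 ± 1.00), Ppp1r3b (40.1 ± 0.869) and Ppp1r3c (15.3 ± 2.26), each mean ± SD of 3 libraries. Of neighbours in this order, the libraries of Fbp1 and Pck1 overlapped and the others did not. In KO-labelled libraries at 5 months Slc37a4 had rank 6 (82.8 ± 5.95 CPM per kb), overlapping Ppp1r3b (81.4 ± 7.37), which in turn overlapped Slc2a2 (76.9 ± 4.51). Pcx (152 ± 9.11) and G6pc (139 ± 11.7) also overlapped there, and Fbp1 (636 ± 48.1) and Pck1 (544 ± 96.3).

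Most genes of the list of opposing glycolytic control were higher at both times. Of 6 genes, 4 were called higher at 2 months (3.56% of all genes were called in either direction) and 5 at 5 months (18.4%), with 0 called lower, and medians of 0.44 and 0.48 on the log2 scale, against 0 and -0.01 over all genes. Gckr, whose product is itself an inhibitor, rose by 0.43 at 2 months and 0.46 at 5 months, Pklr, the liver pyruvate kinase, by 0.61 and 1.12, and Mlxipl, which encodes the carbohydrate response factor ChREBP, by 0.46 and 0.45, and Pfkfb1 rose by 0.50 at 5 months (edgeR adjusted p = 0.00056, and 0.163 in the fit of all 12 libraries). The 2-month count fell to 1 with library size alone or without wild-type or KO-labelled replicate 3, and to 0 without wild-type replicate 2 or KO-labelled replicate 1 or 2.

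**Figure D5:**
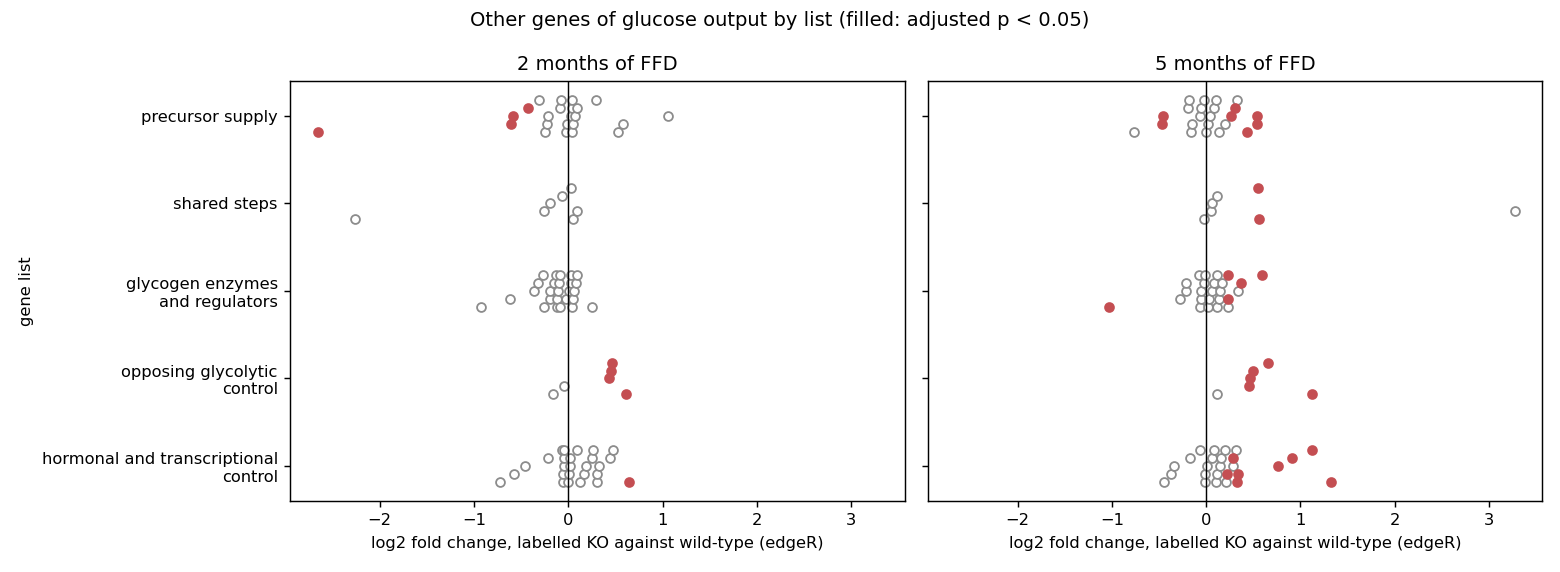
Log2 fold change (x axis) of libraries labelled PPARγ-KO against wild-type for the other genes of glucose output, by list (y axis), after 2 months (left) and 5 months (right) of FFD. Each point is a gene and filled points had an edgeR adjusted p below 0.05; 4 of 6 genes of opposing glycolytic control are filled at 2 months and 5 of 6 at 5 months, all to the right of 0.

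Among 26 genes of precursor supply, 23 were tested. At 2 months 4 were called (17.4%, against 3.56% of all genes), all lower in KO-labelled libraries: the glycerol channel gene Aqp7 (-2.65, at 0.171 to 2.21 CPM), the glycerol phosphate dehydrogenases Gpd1 (-0.61) and Gpd2 (-0.59), and Slc16a7 (-0.43), which encodes a monocarboxylate carrier. Aqp7, a channel best known from fat cells, was not called at 5 months (-0.77, edgeR adjusted p = 0.131). Of the 5 adipocyte markers listed, Car3 and Cfd were tested and were lower at both times (Car3 called at 2 months, both at 5 months). Plin1, Adipoq and Lep had 0 to 2 counts in every library. The summed level of these markers was 2318 to 2687 CPM in wild-type and 1565 to 1873 in KO-labelled libraries at 2 months. Car3 made up nearly all of it (means of 2512 and 1679 CPM). The part of these markers in the value of Aqp7 was not tested. At 5 months 5 genes of precursor supply were called higher and 2 lower (30.4%, against 18.4% of all genes). The alanine aminotransferase Gpt2 and the aspartate and glutamate carrier Slc25a13 rose by 0.54 each (edgeR adjusted p = 0.000283 and 0.000362), whereas Gpd1 (-0.47) and Gpd2 (-0.46) were again lower. Gpt2 was the gene of this list whose genotype difference changed between the times, by 0.78 (edgeR adjusted p = 0.00643). None of these 2-month calls held without wild-type replicate 2 or 3 or KO-labelled replicate 1 or 3, and without KO-labelled replicate 2 only Slc16a7 was called among them.

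Of 28 further glycogen genes, 26 were tested at 2 months and 25 at 5 months. At 2 months 0 were called by edgeR or DESeq2, and 3 had an unadjusted p below 0.05. At 5 months 4 were called higher and 1 lower, a share of 20% that lay near the 18.4% of all genes. Ugp2, which makes UDP-glucose, the substrate of glycogen synthase, rose by 0.59 (edgeR adjusted p = 0.000535) and the branching enzyme Gbe1 by 0.37 (edgeR adjusted p = 0.00741). Ppp1r3g, another glycogen-targeting subunit, was lower (-1.03, edgeR adjusted p = 0.0038), at 9.44, 11.6 and 10.8 CPM in wild-type and 6.51, 5.41 and 3.37 in KO-labelled libraries, opposite to Ppp1r3b and Ppp1r3c, and its adjusted p was 0.438 in the fit of all 12 libraries. The count was 2 in the fit of all 12 libraries and 3 without wild-type replicate 2 or 3 or KO-labelled replicate 3, or with the replicate number as a block. Of the 7 steps shared by glycolysis and gluconeogenesis, 0 were called at 2 months by edgeR or DESeq2 (1 at an unadjusted p below 0.05), and 2 were called higher at 5 months (28.6%, against 18.4% of all genes), among them Gpi1 (0.55).

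Of 26 genes of hormonal and transcriptional control, 1 was called at 2 months (3.85%, against 3.56% of all genes), Klf15, a glucocorticoid-induced activator of gluconeogenesis (log2 fold change 0.64, edgeR adjusted p = 0.0482, 0.0635 with the replicate number as a block), a call also lost without wild-type replicate 2 or 3 or KO-labelled replicate 2 or 3. At 5 months 8 were called (30.8%, against 18.4% of all genes), all higher. Ppargc1a, the coactivator PGC1α that is known to raise Pck1 and G6pc, had 7.17, 6.77 and 6.90 CPM in wild-type and 17.4, 17.8 and 16.4 in KO-labelled libraries (log2 fold change 1.32, SE 0.104, edgeR adjusted p = 4.65e-06). Nr0b2, the small heterodimer partner, rose by 1.12 (edgeR adjusted p = 0.0521 in the fit of all 12 libraries), Klf9 by 0.91 and Foxo3 by 0.76. Hnf4a rose by 0.28 (edgeR adjusted p = 0.0151, lost without wild-type replicate 2 or 3 or KO-labelled replicate 3) and was at 0.31 at 2 months (edgeR adjusted p = 0.105), where it was called with no filter, with DESeq2, in the fit of all 12 libraries and without wild-type replicate 1 (adjusted p down to 0.00344). Foxo1 (0.26 and 0.32, edgeR adjusted p = 0.341 and 0.112), the glucagon receptor gene Gcgr (0.00 and 0.08, edgeR adjusted p = 0.997 and 0.422) and Insr, the insulin receptor gene (-0.05 and 0.11, edgeR adjusted p = 0.791 and 0.286), were not called at 2 or 5 months. Foxo1 was called at 5 months in 3 alternatives, with the replicate number as a block (edgeR adjusted p = 0.0498), with no filter (0.000808) and without wild-type replicate 1 (0.000148). The 5-month count was 4 without wild-type replicate 2 or 3 and in the fit of all 12 libraries, and 12 without wild-type replicate 1.

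Other groups of genes moved with the genotype at 5 months, when 18.4% of all genes were called, against 3.56% at 2 months. Glucocorticoid response genes were called in 8 of 12 (6 higher, 2 lower, led by Zbtb16 at 3.45 and Fkbp5 at 2.54), feeding-raised genes in 10 of 12, all higher, fasting-raised genes in 7 of 13 (6 higher, 1 lower), and clock genes in 8 of 18, all higher. At 2 months these counts were 0, 2, 1 and 0 by edgeR and 2, 2, 4 and 1 by DESeq2, and 3 glucocorticoid response genes and 3 clock genes had an unadjusted p below 0.05. With the replicate number as a block, 2 glucocorticoid response genes and 1 clock gene were called at 2 months. Hepatocyte markers summed to 65430 to 71310 CPM in wild-type and 80960 to 93320 in KO-labelled libraries at 5 months, with 2 of 9 tested called (22.2%; Alb higher, Cyp3a11 lower). Without Alb the sum went the other way, from 31300 to 32660 CPM in wild-type to 28380 to 30760 in KO-labelled libraries. Cyp3a11 made the largest change in that sum, with means of 6863 CPM in wild-type and 3044 in KO-labelled libraries. By direction, 4 of the 9 markers tested were higher and 5 lower, with a median log2 fold change of -0.01. Macrophage markers summed to 1167 to 1300.0 and 544 to 720.0 CPM, with 8 of 10 called lower. Of 10 periportal hepatocyte markers, 3 were called higher and 3 lower at 5 months, and of 10 pericentral markers 5, all higher. At 2 months 0 periportal markers and 1 pericentral marker were called. By direction alone, 9 periportal and 5 pericentral markers were higher at that time. The part of these groups in the values of the members was not tested, and in bulk liver a change in the number of cells of a type cannot be told apart from a change in RNA per cell.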

How the data were processed

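Liver RNA-seq count tables of 12 libraries were analysed, 3 per genotype and time. The authors deposited whole-number read counts per gene for each library, without normalization. The study's methods name STAR as the aligner, whereas the submitters' processing notes name HISAT2 and mm10, so the aligner is uncertain here. The counting tool, annotation release and strand setting are not given in the sources used here. Gene names that a spreadsheet had turned into dates (27) were restored from the gene identifiers.

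Genes were filtered with filterByExpr, scaled with TMM and tested with the robust quasi-likelihood F-test of edgeR 4.0.16 (limma 3.58.1, R 4.3.3) on the counts, two-sided, with Benjamini-Hochberg adjustment over all genes and a threshold of 0.05. Each comparison was fitted on its own 6 libraries, and the difference between the times on all 12. CPM are counts per TMM-scaled library size, and levels between genes are per kb of the deposited gene length. SE was the log2 fold change divided by the square root of F. The edgeR and DESeq2 fits were tested on simulated data. DESeq2 1.42.0, other scalings, no filter, the replicate number as a block, a joint fit and leaving out each library were alternatives. So was an unadjusted p below 0.05 together with a 1.3-fold change. The ratios, and the alternatives for genes other than the members, were added after seeing the data.

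The replicate numbers are shared across groups in the labels. Libraries of 2 months with the same number deviated together (r = 0.218, 0.323 and 0.14 over 5000 genes), which met the criterion for pairing of r above 0.1 in each pair. Those of 5 months (-0.0807, -0.0586 and -0.172) and the times within a genotype (-0.0393 to 0.239) did not. At 2 months, wild-type replicate 1 and KO-labelled replicate 3, which differ in number, also lay above 0.1 (r = 0.113). The criterion therefore does not settle whether the 2-month libraries were paired. The main fits left the replicate number out, also at 2 months, and the block was an alternative. With the block at 2 months, Slc37a4 stayed called, Pcx was lost and Ppp1r3c was gained.

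The members and gene lists were chosen with earlier results of these data known. The text names all members, Pparg, Gckr, Pklr, Hnf4a, Foxo1, Ppargc1a, Gcgr and Insr, and of each other list up to 4 called genes with the largest change per comparison. Some genes that this rule covers are not reported here. The lists were 5 of glucose genes, with lists of fasting, feeding, clock, glucocorticoid and cell type genes beside them. Of the hepatocyte list, 9 of 10 symbols were found. Promoter windows were those of RefSeq on GRCm38.p6. The libraries held 16367775 to 27452284 counts, and the lowest member count in a library was 435.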

Additional observations from a re-analysis of the deposited data

How the results depend on the processing

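Of 1722 alternative values computed, 1453 kept their direction, their side of the threshold or their count within 1.5 times. A call was lost in 106 and gained in 22. A further 109 moved, among them counts and most alike genes, and 32 reversed. Every reversal was of a value that was not called. With library size alone as the scaling, the log2 differences between genotypes were -0.015 for G6pc, -0.041 for Fbp1 and -0.075 for Gcgr at 2 months, and -0.015 for Fbp1 and -0.047 for Slc2a2 at 5 months, and the change over time in wild-type was -0.021 for G6pc and -0.046 for Ppp1r3b. The change of the genotype difference of Fbp1 was -0.004 with no filter and -0.003 with DESeq2. Leaving out single libraries gave, at 2 months, -0.174 to 0.305 for G6pc, -0.053 to 0.089 for Fbp1, -0.082 to 0.039 for Slc2a2 and -0.031 to 0.057 for Gcgr. At 5 months it gave -0.01 to 0.095 for Fbp1, -0.018 to 0.07 for Slc2a2 and -0.088 to 0.059 for Gys2. Over time it gave -0.023 to 0.112 for G6pc and -0.183 to 0.267 for Ppp1r3b in wild-type and -0.39 to 0.117 for Pck1 in KO-labelled libraries. For the change of the genotype difference between the times it gave -0.06 to 0.099 for Fbp1, -0.023 to 0.099 for Slc2a2 and -0.031 to 0.52 for Ppp1r3c. The cause of these reversals was not tested.

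With an unadjusted p below 0.05 and a 1.3-fold change together, 1 member passed at 2 months in place of 2. Over time in KO-labelled libraries 2 passed in place of 4, and for the difference between the times 1 in place of 0. Leaving out single libraries gave 0 to 2 members at 2 months and 0 to 1 for the difference between the times. With the replicate number as a block, 2 members were called at 2 months, 5 at 5 months, 3 and 4 over time in wild-type and KO-labelled libraries and 0 for the difference between the times. Beside the calls named with the results, the block lost Phkb at 5 months (edgeR adjusted p = 0.0688) and gained Pklr over time in KO-labelled libraries (0.0203), and it changed no other call of a gene named.

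Calls over all genes at 2 months numbered 519, and 817 with the block, 920 with DESeq2, 1562 with no filter and 1153 in the joint fit. They numbered 1608 by unadjusted p and 1.3-fold change together and 117 to 1577 without single libraries. At 5 months they numbered 2602, but 1593 and 1601 without wild-type replicate 3 or 2. For the difference between the times they numbered 238, and 793 with no filter and 573 with DESeq2. There they numbered 1563 by unadjusted p and 1.3-fold change together and 83 to 567 without single libraries. Library size alone moved the split of higher and lower calls from 259 and 260 to 171 and 349 at 2 months, from 1258 and 1344 to 889 and 1894 at 5 months, from 3442 and 3283 to 2745 and 3872 over time in wild-type and from 3287 and 3215 to 2741 and 3725 in KO-labelled libraries. The ratios within a library kept their direction without any single library. The order of levels per kb was the same with library size alone.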

Other observations

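Genes of opposing glycolytic control also changed from 2 to 5 months of FFD. Mlxipl, the gene of ChREBP, fell by 1.20 on the log2 scale in wild-type and by 1.22 in KO-labelled libraries, and Gckr by 0.43 and 0.42. Pklr fell by 0.77 in wild-type (edgeR adjusted p = 0.000266) and had a change of -0.28 in KO-labelled libraries (edgeR adjusted p = 0.139). Insr, the insulin receptor gene, fell by 0.65 in wild-type (edgeR adjusted p = 5.07e-05) and by 0.51 in KO-labelled libraries (edgeR adjusted p = 0.000114). Of 12 feeding-raised genes, 11 were called lower and 1 higher in wild-type, and 3 lower and 1 higher in KO-labelled libraries. Called or not, 10 of them were lower and 2 higher in KO-labelled libraries. Of 23 genes of precursor supply, 7 were called higher and 6 lower in wild-type, and 10 higher and 5 lower in KO-labelled libraries. Of the further glycogen genes, 3 were called higher and 7 lower of 26 in wild-type, and 9 higher and 3 lower of 25 in KO-labelled libraries. Over all genes 46.4% and 44.9% were called.

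Over the 12 libraries, the gene whose log2(CPM + 1) was most like that of a member had a Pearson correlation of 0.873 to 0.985. It was Iffo2 for G6pc (0.933), Ppp2r5e for Slc37a4 (0.965), Senp6 for Pck1 (0.886), Shb for Fbp1 (0.873), Fitm2 for Pcx (0.985), Tcf7l2 for Slc2a2 (0.968), Unk for Gys2 (0.969), Gsta3 for Pygl (0.96) and Spc24 for Ppp1r3b (0.923). With Spearman's correlation the most alike gene was the same for G6pc and Slc37a4 and differed for 8 members. Among the members, Slc2a2 and Gys2 were the most alike (0.914) and Pcx and Pygl ran most opposite (-0.823). The libraries share their groups of genotype and time, so these values are descriptions.

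Gapdh, named after its values were seen and a gene with many processed pseudogene copies, was uneven between libraries of a group. Its counts were 273, 3026 and 325 in wild-type and 216, 222 and 405 in KO-labelled libraries at 2 months, and 167, 132 and 198 and then 1488, 3587 and 194 in the same order at 5 months. How reads shared with the copies were counted is not given in the sources used here, so its level is uncertain, and it was not called in either genotype comparison (edgeR adjusted p = 0.415 and 0.145).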
